A study of Mus musculus with 8 samples.

Results

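DNA damage signalling and repair was followed through 36 genes, taken by symbol: 6 of the checkpoint, 16 of homologous recombination, 7 of the Fanconi pathway, 5 of end joining, and the mismatch and break sensors Msh6 and Parp1. All 36 were found among the 23284 gene symbols of the files, and all 36 were among the 11931 genes that reached 1 FPKM in at least 2 of 8 libraries. FPKM counts sequenced fragments per length of transcript and per size of library. No repair gene differed from PBS beyond the threshold after either treatment. Most had slightly lower values: in 4 treated against 4 PBS libraries, 33 of 36 (91.7%) were lower, against 51.3% of all tested genes. So were 23 of 24 G2 and M phase, 26 of 30 S phase and 84 of 111 other repair genes, but only 8 of 24 p53 targets. Between the 2 untreated PBS pairs 24 of the 36 were lower in 1 pair. Eme1, Chek2, Rad50 and Clspn (11.1%) were lower in each of the 4 treated libraries than in each of the 4 controls. Of all tested genes 2.84% were, and the gap of Clspn closed when libraries were rescaled by median ratios.

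The cells were LSK cells, the Lineage- Sca-1+ c-Kit+ fraction of bone marrow that holds blood stem cells and multipotent progenitors, sorted from C57BL/6 males 12 to 13 weeks old. The groups were glucose (2 g/kg, 2 libraries), glucose+lipid (the same glucose with 6 mL/kg of a 20% lipid emulsion, 2 libraries) and phosphate-buffered saline (PBS, 4 libraries). Injections went into a vein on 7 days after a fast of more than 14 hours, also in the controls, and marrow from leg bones was taken on day 8. RNA came from about 10000 sorted cells, and the labels call the libraries biological replicates without saying whether each was 1 mouse or a pool, so p-values measure the spread between these libraries, which may be technical. By its title, the series is about blood glucose and triglyceride after eating and the regulation and ageing of marrow stem cells. Each treatment had its own PBS mice. The glucose+lipid libraries and PBS replicates 1 and 2 carry the same letters, H and I, and were therefore taken as a set (the controls are written PBS H/I). PBS replicates 3 and 4, written PBS J/K, were left for glucose, an inference from names.

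The gate markers were present in every library, with Kit at 164 to 198 FPKM, Ly6a (Sca-1) at 295 to 424 FPKM and Cd34 at 424 to 567 FPKM. Glucose+lipid replicate 1 stood apart. Its summed neutrophil marker level was 67508 FPKM over 15 markers, against 405 to 815 FPKM in the other 7 libraries. Monocyte and macrophage markers summed to 261 FPKM there, against 36.8 to 74.3 FPKM in the other 7, and Cd79a of B cells stood at 19.1 FPKM, against at most 0.380 FPKM. Erythroid markers were high in both glucose+lipid libraries, with sums over 12 genes of 3366 and 2365 FPKM, against 1159 to 1724 FPKM in the other 6 libraries. Their median log2 fold change after glucose+lipid was 1.56, with 12 of 12 above 0, and without replicate 1 it was 0.53, with 3 of 11 tested markers below 0. Leaving out replicate 1 therefore does not remove the erythroid transcripts from this group, and their part in the repair values was not tested. The main values that use replicate 1 are also given without it. Relative depth ran from 0.786 to 1.14 times that of glucose replicate 1. Absolute depth is not known, so no counting intervals are given. In bulk RNA, fewer cells of a kind and less transcript per cell cannot be told apart.

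Cells answer broken or stalled DNA with kinases that halt the cycle: ATM responds to breaks and ATR to exposed stretches at stalled forks, and each passes the signal to a checkpoint kinase, CHK2 and CHK1. Breaks are then repaired by copying the sister chromatid (homologous recombination) or by direct rejoining (end joining), and the Fanconi pathway clears crosslinks between strands. Blood stem cells depend on these pathways: inherited loss of Fanconi genes causes bone marrow failure, and many genes of recombination and replication checkpoints are made mainly by cycling cells, often under E2F factors.

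The start regions of the genes that were lower in all treated libraries are shown so that their letters can be read beside their values. Of the 4 such genes, 3 have an entry in the RefSeq promoter table (GRCm38.p6), which gives 250 bases before to 50 bases after each start, and 28 of the 36 genes have entries, with 31 windows. Capitals mark matches on either strand to the E2F-like letters TTTNNCGC, to the CCAAT box and to the CHR element TTTGAA, none of which overlapped another kind in these windows. Chek2 is read from chr5:110839733-110840032 on the plus strand, Clspn from chr4:126556730-126557029 on the plus strand and Eme1 from chr11:94653694-94653993 on the minus strand.
Chek2: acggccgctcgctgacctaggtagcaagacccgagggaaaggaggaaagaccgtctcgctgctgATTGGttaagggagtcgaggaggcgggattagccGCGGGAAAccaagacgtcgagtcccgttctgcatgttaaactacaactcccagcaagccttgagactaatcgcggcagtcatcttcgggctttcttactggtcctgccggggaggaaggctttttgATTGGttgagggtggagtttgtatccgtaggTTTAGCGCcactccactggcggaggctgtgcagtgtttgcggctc
Clspn: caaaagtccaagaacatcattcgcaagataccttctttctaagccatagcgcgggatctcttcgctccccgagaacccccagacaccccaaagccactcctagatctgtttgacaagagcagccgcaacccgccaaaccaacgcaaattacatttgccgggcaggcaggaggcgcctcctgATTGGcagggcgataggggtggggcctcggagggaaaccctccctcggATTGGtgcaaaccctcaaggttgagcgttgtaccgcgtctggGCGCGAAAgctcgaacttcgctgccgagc
Eme1: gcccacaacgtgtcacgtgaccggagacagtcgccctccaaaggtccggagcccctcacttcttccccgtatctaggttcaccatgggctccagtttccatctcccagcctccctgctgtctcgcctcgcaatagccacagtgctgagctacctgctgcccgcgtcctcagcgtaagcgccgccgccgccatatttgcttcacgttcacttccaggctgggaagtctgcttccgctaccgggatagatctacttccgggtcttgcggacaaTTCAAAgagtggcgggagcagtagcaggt
The Chek2 window held CCAAT matches 186 and 26 bases before the start and E2F-like matches 152 bases before and 5 bases after it. The Clspn window held CCAAT matches 69 and 21 bases before the start and an E2F-like match 21 bases after it. The Eme1 window held neither of these letter strings and 1 CHR match, 21 bases after the start. Distances are counted from the start on which each window was built. For these 3 genes that start is not the end of the gene span given further below. A match is a run of letters and not a measured binding site.

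Over the 31 windows of the repair genes, 9 (29.0%) held the E2F-like letters, against 5.17% of all 32851 windows and 8.35% of the 10843 windows of tested genes. CCAAT was in 17 (54.8%), against 37.4% and 38.0%. The CHR letters were in 1 (3.23%), against 17.9% and 12.0%. Median GC content was 60.0%, against 52.7% over all windows and 60.7% over those of tested genes. The 8 genes with E2F-like letters (Brca2, Brip1, Chek2, Clspn, Fancg, Msh6, Rad51c and Xrcc6) had a median log2 fold change of -0.12 for treated against PBS, and the 20 without had -0.14. With CCAAT the median was -0.09 over 16 genes, and without it -0.17 over 12 genes.

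In PBS cells the 36 genes spanned a wide range of FPKM levels, which are scaled by length. Comparison between genes is only approximate, since the gene annotation is not given and fragments of overlapping genes cannot be told apart. Tipin, whose protein steadies the replication fork together with Timeless, was highest at 294 ± 38.8 FPKM (SD, n = 4). Next came Xrcc6 at 106 ± 14.4, Parp1 at 104 ± 13.3 and Msh6 at 101 ± 10.5 FPKM, whose ranges overlapped in that order. After a gap came Rad54l at 40.6 ± 2.95 FPKM, and at the low end stood Clspn at 6.16 ± 0.218, Fancm at 4.57 ± 0.738, Atm at 4.29 ± 0.83, Rad51c at 3.07 ± 0.484 and Lig4 at 1.11 ± 0.438 FPKM. The median of the 36 levels was 14.9 FPKM, close to the 15.7 FPKM of all tested genes, and 30 of the 36 genes overlapped the next in the order. Levels did not follow the role: the checkpoint group alone holds the highest gene and, in Atm, nearly the lowest. Partners in 1 complex also differed, with Lig4 far below Xrcc4 (17.1 ± 4.06 FPKM) although their proteins act together.

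**Figure D1:**
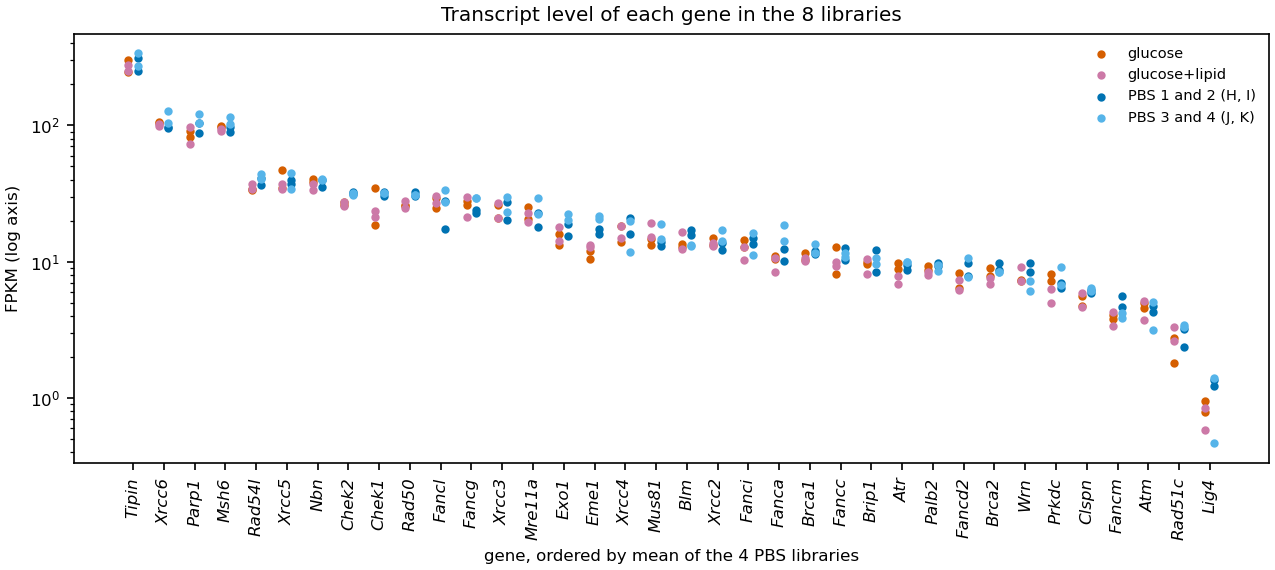
Level of each of the 36 genes in FPKM (log axis), 1 point per library, with genes ordered by the mean of the 4 PBS libraries and treated points left of PBS points. Tipin lies highest and Lig4 lowest, and for most genes treated and PBS points overlap.

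Values were compared as log2(FPKM + 1) in limma, with all 8 libraries in 1 fit and Benjamini-Hochberg adjustment over 11931 genes. The log2 fold change understates differences of low genes such as Lig4. A gene counted as changed at an adjusted p under 0.05. By that measure 0 of 36 genes changed after glucose against PBS J/K, where 0.101% of all tested genes did, and 0 of 36 changed after glucose+lipid against PBS H/I, where 0.0754% did. At an unadjusted p under 0.05, limma gave 5 of 36 (13.9%) after glucose, all lower, against 14.9% of all genes, and 2 of 36 (5.56%) after glucose+lipid, both lower, against 11.8%. These shares are near or under the background, which counts both directions. Lower genes alone were 1007 of 11931 after glucose and 707 of 11931 after glucose+lipid. The share of the 36 after glucose was above that of lower genes alone.

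The direction was more uneven than these calls. After glucose 30 of 36 genes (83.3%) had a log2 fold change below 0, against 50% of all tested genes, with a median of -0.14. After glucose+lipid 28 of 36 (77.8%) lay below 0, against 48.2%, with a median of -0.15 (-0.16 and 26 of 36 without replicate 1). The median over all tested genes was -0.00 and 0.01 in these comparisons. When the 4 treated libraries were set against the 4 PBS libraries in a fit that allowed for the control set, 33 of 36 (91.7%) lay below 0, against 51.3%, with a median of -0.13 against -0.01 over all genes. No gene passed there either, against 0.268% of all tested genes, and 7 of 36 (19.4%) had an unadjusted p under 0.05 in limma, all of them lower, against 11.4% of all tested genes in either direction. Without glucose+lipid replicate 1 this fit had 31 of 36 below 0 and a median of -0.14. Genes are not independent of each other, and these counts carry no test.

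**Figure D2:**
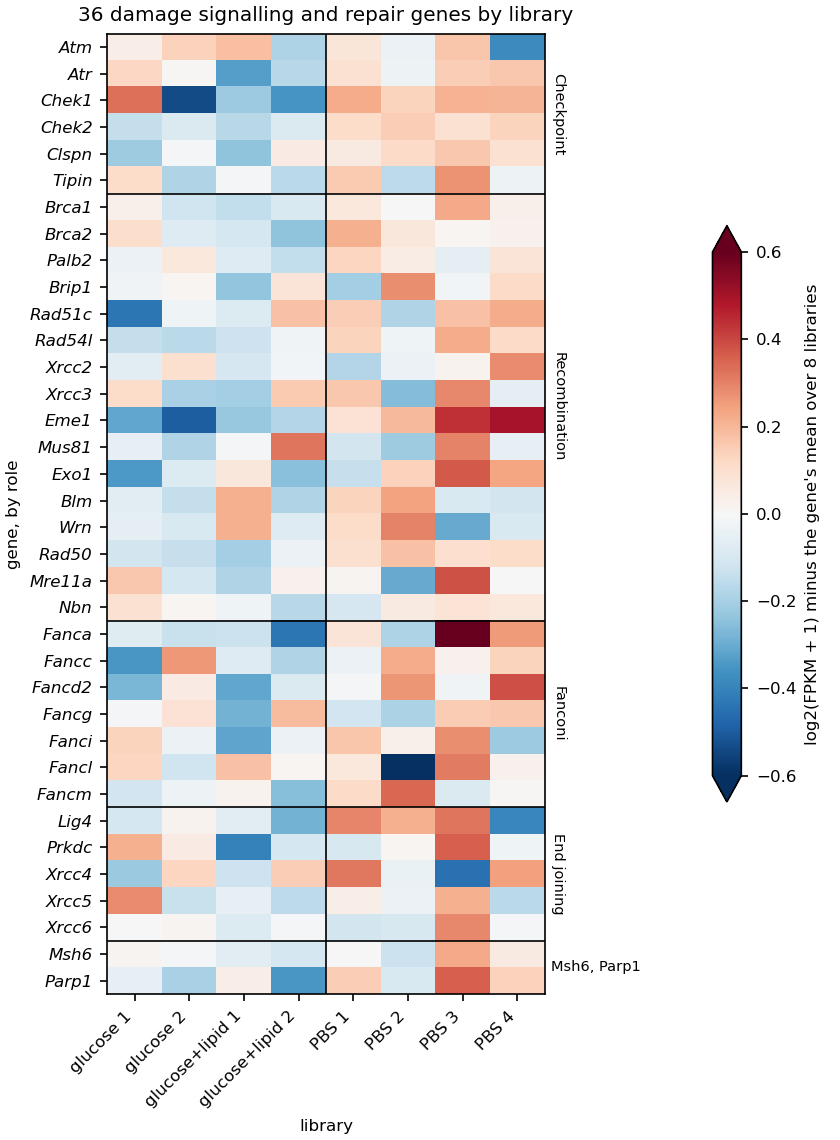
Each cell is the log2(FPKM + 1) of a gene in a library minus that gene's mean over the 8 libraries (blue lower, red higher), with treated libraries left of PBS and genes grouped by role. Blue prevails on the treated side and red on the PBS side, most evenly for Eme1, Chek2 and Rad50, and many genes vary among libraries of 1 group.

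Both libraries of a group lay below both controls for 13 of 36 genes (36.1%) after glucose, against 24.8% of all tested genes, and for 16 of 36 (44.4%) after glucose+lipid, against 21.8%. Over all 8 libraries, 4 of 36 (11.1%) were lower in every treated than in every PBS library, against 2.84% of tested genes, and 0 of 36 were higher throughout, against 3.55%. Summarised per library, the median deviation of the 36 genes from their own means was -0.04 and -0.05 after glucose and -0.10 and -0.10 after glucose+lipid, against 0.08 and 0.01 in PBS H/I and 0.19 and 0.07 in PBS J/K. All 4 treated libraries thus lay below all 4 PBS libraries, and PBS replicate 3 lay farthest from them.

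Checkpoint genes had medians of -0.19 after glucose and -0.22 after glucose+lipid, with 5 and 6 of 6 below 0. Chek2, the kinase that ATM switches on at breaks, stood at 26.2 and 27.3 FPKM after glucose and 25.8 and 27.3 FPKM after glucose+lipid, against 31.3 and 32.2 FPKM in PBS H/I and 30.9 and 31.9 FPKM in PBS J/K. The treated values were close to each other, as were the PBS values, and the groups did not overlap. Its log2 fold change was -0.22 ± 0.11 (SE, adjusted p = 0.379) after glucose and -0.25 ± 0.11 (adjusted p = 0.417) after glucose+lipid, and -0.24 ± 0.08 over 4 against 4 (adjusted p = 0.347). The PBS pairs differed by 0.02 for this gene, and without glucose+lipid replicate 1 the value over 4 against 4 was -0.22.

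Chek1, the kinase that ATR switches on when forks stall, stood at 34.7 and 18.6 FPKM after glucose and 23.4 and 21.2 FPKM after glucose+lipid, against 32.1 and 30.1 FPKM in PBS H/I and 31.7 FPKM in both PBS J and PBS K. The glucose libraries lay on either side of the controls, and both glucose+lipid libraries lay below them. Its log2 fold change was -0.31 ± 0.25 (adjusted p = 0.597) after glucose, but 0.13 without glucose replicate 2 and -0.74 without replicate 1. After glucose+lipid it was -0.47 ± 0.25 (adjusted p = 0.507), the lowest value of the 36 in that comparison, and -0.53 without replicate 1.

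Clspn encodes claspin, through which ATR reaches CHK1. It stood at 4.73 and 5.59 FPKM after glucose and 4.63 and 5.88 FPKM after glucose+lipid, against 5.91 and 6.20 FPKM in PBS H/I and 6.43 and 6.10 FPKM in PBS J/K. The groups did not overlap, but the gap between 5.88 and 5.91 FPKM was narrow and closed when libraries were rescaled by median ratios. Over 4 against 4 its log2 fold change was -0.21 ± 0.13 (adjusted p = 0.550), and the value of -0.18 after glucose+lipid was -0.03 without replicate 1.

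The kinase gene Atr stood at 9.71 and 8.88 FPKM after glucose and 6.81 and 7.77 FPKM after glucose+lipid, against 9.48 and 8.62 FPKM in PBS H/I and 9.89 and 10.0 FPKM in PBS J/K. Only the glucose+lipid values were below all 4 PBS values, with a log2 fold change of -0.28 ± 0.15 (adjusted p = 0.523). Atm stood at 4.54 and 4.94 FPKM after glucose and 5.13 and 3.75 FPKM after glucose+lipid, against 4.68 and 4.28 FPKM in PBS H/I and 5.07 and 3.15 FPKM in PBS J/K. These ranges overlapped, and its log2 fold change after glucose, 0.19 ± 0.24 (adjusted p = 0.746), was the highest of the 36. Tipin stood at 303 and 247 FPKM after glucose and 278 and 251 FPKM after glucose+lipid, against 312 and 251 FPKM in PBS H/I and 338 and 275 FPKM in PBS J/K, also with overlap.

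Recombination genes had medians of -0.16 after glucose and -0.12 after glucose+lipid, with 14 and 11 of 16 below 0. Eme1 encodes the partner of the nuclease MUS81, which cuts joined DNA molecules late in recombination and at stalled forks. It stood at 11.9 and 10.4 FPKM after glucose and 12.7 and 13.2 FPKM after glucose+lipid, against 16.0 and 17.3 FPKM in PBS H/I and 20.7 and 21.6 FPKM in PBS J/K. All treated values were below all PBS values, and the PBS pairs did not overlap each other. Its mean was 11.1 ± 1.08 FPKM after glucose, against 21.2 ± 0.649 FPKM in PBS J/K, and 12.9 ± 0.351 FPKM after glucose+lipid, against 16.7 ± 0.948 FPKM in PBS H/I (SD, n = 2 each).

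The log2 fold change of Eme1 was -0.87 ± 0.13 after glucose (95% interval -1.18 to -0.56, adjusted p = 0.0945), the lowest of the 36 and still short of the threshold. With PBS H/I as controls it was -0.54. After glucose+lipid it was -0.34 ± 0.13 (adjusted p = 0.390), or -0.67 with PBS J/K as controls. PBS H/I differed from PBS J/K by -0.33 ± 0.13 (adjusted p = 0.272), so the difference between untreated pairs was about as large as the difference after glucose+lipid. Over 4 against 4 the value was -0.61 ± 0.13 (adjusted p = 0.168), and without glucose+lipid replicate 1 these values were -0.31 and -0.65. In the glucose comparison its smallest adjusted p in limma under the alternatives was 0.0714.

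Mus81, the catalytic partner, did not share this pattern. It stood at 14.6 and 13.3 FPKM after glucose and 15.1 and 19.2 FPKM after glucose+lipid, against 14.0 and 13.0 FPKM in PBS H/I and 18.9 and 14.6 FPKM in PBS J/K. Its log2 fold change was -0.24 ± 0.18 (adjusted p = 0.561) after glucose, 0.32 ± 0.18 (adjusted p = 0.527) after glucose+lipid, and 0.04 over 4 against 4. Mus81 was not among the genes picked by the rule for full values and was added for its partnership with Eme1 after its values were seen.

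Rad50, Mre11a and Nbn encode the complex that holds broken ends and activates ATM. Rad50 stood at 26.2 and 25.7 FPKM after glucose and 24.5 and 27.7 FPKM after glucose+lipid, against 30.4 and 32.3 FPKM in PBS H/I and 30.6 and 30.8 FPKM in PBS J/K. As with Chek2 the groups did not overlap and the PBS pairs were alike, differing by 0.03 on the log2 scale. Its log2 fold change was -0.23 ± 0.11 (adjusted p = 0.395) after glucose and -0.26 ± 0.11 (adjusted p = 0.436) after glucose+lipid, which became -0.17 without replicate 1. Over 4 against 4 it was -0.24 ± 0.08 (adjusted p = 0.347).

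The other members of that complex showed no such separation. Mre11a, its nuclease, stood at 25.1 and 20.7 FPKM after glucose and 19.6 and 22.8 FPKM after glucose+lipid, against 22.7 and 17.9 FPKM in PBS H/I and 29.4 and 22.4 FPKM in PBS J/K. Nbn, which links the complex to ATM, stood between 33.7 and 40.5 FPKM in the treated and between 35.3 and 40.2 FPKM in the PBS libraries. Their log2 fold changes over 4 against 4 were both -0.05, with SE of 0.13 for Mre11a and 0.08 for Nbn.

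Exo1, an exonuclease that trims broken ends for recombination, stood at 13.2 and 16.1 FPKM after glucose and 17.9 and 14.2 FPKM after glucose+lipid, against 15.4 and 18.9 FPKM in PBS H/I and 22.3 and 20.3 FPKM in PBS J/K. The glucose values were below both of their controls, with a log2 fold change of -0.52 ± 0.18 (adjusted p = 0.263), but with PBS H/I as controls it was -0.21. Rad54l, a motor protein that aids strand exchange, stood at 33.8 and 33.3 FPKM after glucose and 34.3 and 36.9 FPKM after glucose+lipid, against 41.2 and 36.7 FPKM in PBS H/I and 43.8 and 40.7 FPKM in PBS J/K. Only PBS replicate 2 overlapped the treated values. The log2 fold change of Rad54l was -0.32 ± 0.11 (adjusted p = 0.267) after glucose, -0.12 ± 0.11 (adjusted p = 0.708) after glucose+lipid, and -0.22 ± 0.09 over 4 against 4 (adjusted p = 0.395).

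Brca2, a tumour suppressor needed for strand exchange in recombination, stood at 8.93 and 7.77 FPKM after glucose and 7.59 and 6.81 FPKM after glucose+lipid, against 9.72 and 8.67 FPKM in PBS H/I and 8.31 and 8.40 FPKM in PBS J/K. The glucose+lipid values were below all others, with a log2 fold change of -0.31 ± 0.16 (adjusted p = 0.480), and after glucose it was -0.00 ± 0.16. Wrn, a helicase mutated in a human premature ageing syndrome, stood at 7.35 and 7.14 FPKM after glucose and 9.07 and 7.22 FPKM after glucose+lipid, against 8.38 and 9.68 FPKM in PBS H/I and 6.04 and 7.14 FPKM in PBS J/K. The larger contrast for Wrn lay between the untreated pairs, at 0.40 ± 0.18 (adjusted p = 0.304), against 0.12 after glucose and -0.14 after glucose+lipid. The remaining recombination genes, which include Brca1 (the tumour suppressor that directs end trimming), its partners Palb2 and Brip1, the related genes Rad51c, Xrcc2 and Xrcc3, which aid strand exchange, and the helicase Blm, had log2 fold changes from -0.43 for Rad51c to 0.00 for Palb2 after glucose. After glucose+lipid these 7 ran from -0.20 for Palb2 to 0.06 for Rad51c.

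**Figure D3:**
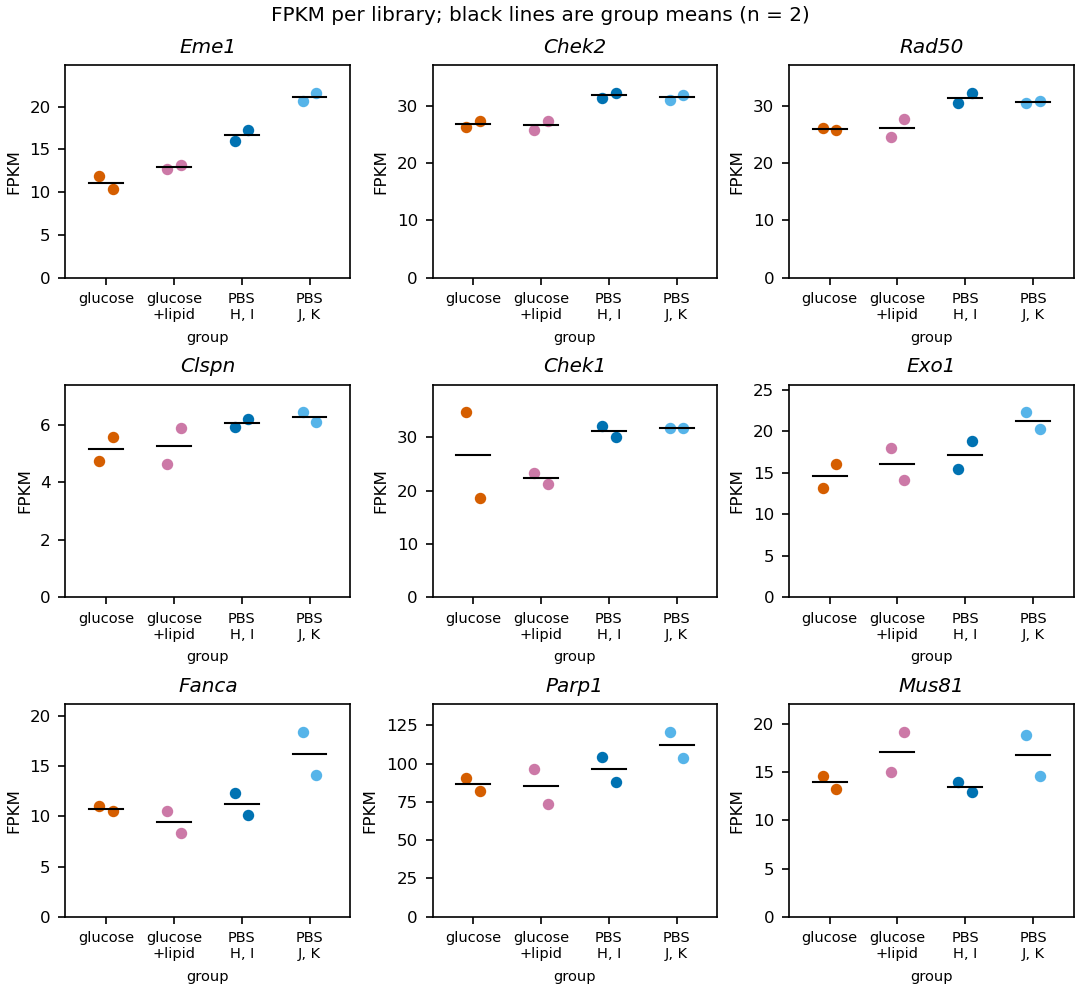
FPKM of 9 genes, 1 point per library and a black line at each group mean (n = 2), with the glucose and glucose+lipid groups left of the PBS pairs H, I and J, K. Eme1, Chek2, Rad50 and Clspn separate treated from PBS libraries, Chek1 splits between the glucose libraries, and Exo1 and Fanca are highest in PBS J/K.

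Fanconi genes had medians of -0.13 after glucose and -0.23 after glucose+lipid, with 6 and 5 of 7 below 0. Fanca, a scaffold of the core complex, stood at 11.0 and 10.5 FPKM after glucose and 10.6 and 8.36 FPKM after glucose+lipid, against 12.3 and 10.1 FPKM in PBS H/I and 18.4 and 14.1 FPKM in PBS J/K. The high values were those of PBS J/K, and the other 6 libraries lay together. Its log2 fold change after glucose was -0.54 ± 0.19 (adjusted p = 0.269) but -0.05 with PBS H/I as controls, and the PBS pairs differed by -0.49 ± 0.19 (adjusted p = 0.246).

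Fancd2, which the core complex tags with ubiquitin at damage, stood at 6.35 and 8.19 FPKM after glucose and 6.15 and 7.35 FPKM after glucose+lipid, against 7.81 and 9.68 FPKM in PBS H/I and 7.74 and 10.6 FPKM in PBS J/K. Its log2 fold change was -0.29 ± 0.22 (adjusted p = 0.561) after glucose and -0.33 ± 0.22 (adjusted p = 0.598) after glucose+lipid, with 1 glucose library among the controls. Fancl, the ligase that attaches this ubiquitin, stood at 29.3 and 24.5 FPKM after glucose and 30.3 and 26.9 FPKM after glucose+lipid, against 27.9 and 17.3 FPKM in PBS H/I and 33.4 and 27.1 FPKM in PBS J/K. PBS replicate 2 was the low value, and the log2 fold change of Fancl after glucose+lipid, 0.36 ± 0.22 (adjusted p = 0.571), was -0.08 with PBS J/K as controls.

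Fancm, a motor protein that recruits the core complex to crosslinks, stood at 3.79 and 4.07 FPKM after glucose and 4.25 and 3.35 FPKM after glucose+lipid, against 4.61 and 5.58 FPKM in PBS H/I and 3.88 and 4.20 FPKM in PBS J/K. Its log2 fold change after glucose+lipid was -0.35 ± 0.20 (adjusted p = 0.534), or -0.08 with PBS J/K as controls. Fancg, another core subunit, stood at 26.0 and 27.8 FPKM after glucose and 21.3 and 29.9 FPKM after glucose+lipid, against 24.1 and 22.8 FPKM in PBS H/I and 29.1 and 29.3 FPKM in PBS J/K. With all libraries it differed more between the PBS pairs (-0.31 ± 0.16) than after either treatment (-0.12 and 0.10). Without glucose+lipid replicate 1 the value of Fancg after glucose+lipid was 0.34, so this order did not hold. Fanci, the partner of FANCD2, and Fancc of the core complex had log2 fold changes of 0.02 and -0.13 after glucose and of -0.27 and -0.22 after glucose+lipid.

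End joining genes lay nearer to 0 after glucose, with a median of -0.01 and 3 of 5 below 0, and had -0.13 with 4 of 5 below 0 after glucose+lipid. Xrcc6 and Xrcc5 encode the Ku subunits, which clamp broken ends. Xrcc6 stood at 104 and 105 FPKM after glucose and 98.2 and 103 FPKM after glucose+lipid, against 96.3 and 97.4 FPKM in PBS H/I and 127 and 103 FPKM in PBS J/K. Xrcc5 stood at 46.7 and 34.7 FPKM after glucose and 36.9 and 34.1 FPKM after glucose+lipid, against 39.4 and 37.3 FPKM in PBS H/I and 44.5 and 34.1 FPKM in PBS J/K. For both, 1 library of PBS J/K was well above the other, and the log2 fold changes over 4 against 4 were -0.04 ± 0.09 for Xrcc6 and -0.03 ± 0.12 for Xrcc5.

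Prkdc, the kinase subunit that Ku recruits, stood at 8.16 and 7.16 FPKM after glucose and 4.96 and 6.33 FPKM after glucose+lipid, against 6.39 and 6.97 FPKM in PBS H/I and 9.13 and 6.75 FPKM in PBS J/K. The glucose+lipid values were the low ones, at a log2 fold change of -0.22 ± 0.20 (adjusted p = 0.717). Xrcc4, the scaffold of the joining ligase, stood at 14.0 and 18.1 FPKM after glucose and 15.0 and 18.4 FPKM after glucose+lipid, against 20.7 and 16.0 FPKM in PBS H/I and 11.8 and 19.7 FPKM in PBS J/K. The ligase gene Lig4 stood at 0.784 and 0.949 FPKM after glucose and 0.838 and 0.577 FPKM after glucose+lipid, against 1.35 and 1.22 FPKM in PBS H/I and 1.40 and 0.462 FPKM in PBS J/K. PBS replicate 4 held the lowest Lig4 value of all, and the log2 fold change of -0.43 ± 0.30 after glucose+lipid had an adjusted p of 0.630.

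Msh6 takes part in recognising mismatched bases. It stood at 98.7 and 97.3 FPKM after glucose and 93.4 and 90.7 FPKM after glucose+lipid, against 97.9 and 89.2 FPKM in PBS H/I and 114 and 102 FPKM in PBS J/K. Its values were alike except in PBS J/K, and its log2 fold change was -0.14 ± 0.10 after glucose (0.07 with PBS H/I as controls) and -0.02 ± 0.10 after glucose+lipid. Parp1, which senses strand breaks and marks nearby proteins with chains of ADP-ribose, stood at 90.9 and 82.0 FPKM after glucose and 96.6 and 73.5 FPKM after glucose+lipid, against 104 and 88.1 FPKM in PBS H/I and 121 and 104 FPKM in PBS J/K. Its log2 fold change was -0.37 ± 0.16 (adjusted p = 0.336) after glucose and -0.28 ± 0.11 (adjusted p = 0.409) over 4 against 4. After glucose+lipid it was -0.18 ± 0.16 (adjusted p = 0.696), and -0.38 without replicate 1.

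**Figure D4:**
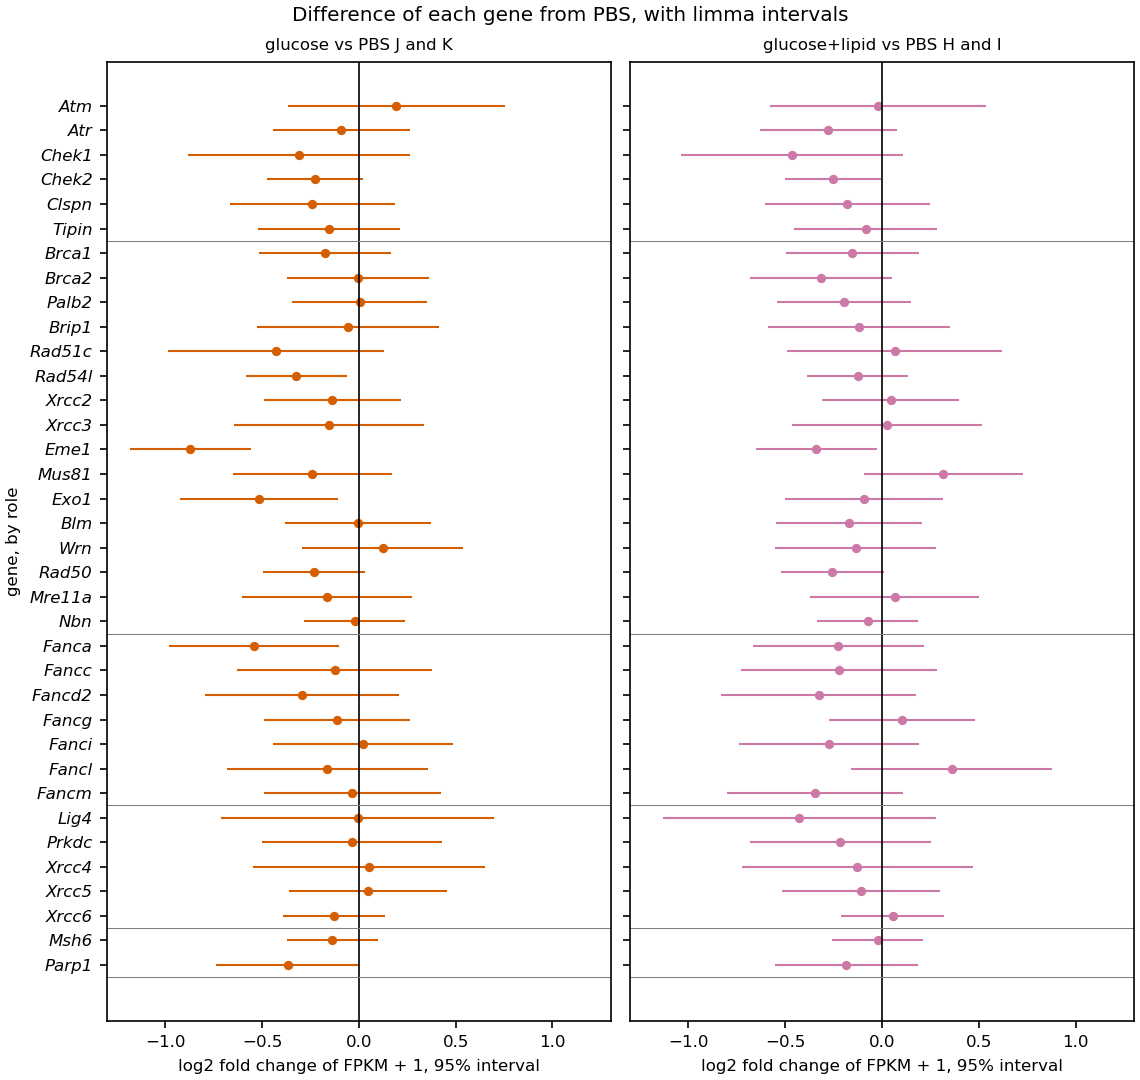
Log2 fold change of each gene on the log2(FPKM + 1) scale with its 95% limma interval, after glucose against PBS J/K (left) and after glucose+lipid against PBS H/I (right), by role group. Most points lie left of 0, Eme1 lies farthest left after glucose, and no gene passed the adjusted threshold.

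The treatments themselves were compared through the difference of effects, glucose minus glucose+lipid, each against its own PBS pair. No repair gene passed, against 0.0168% of all tested genes, 1 of 36 (Eme1, 2.78%) had an unadjusted p under 0.05 in limma, against 12.2%, and 17 of 36 lay below 0 with a median of 0.03. The lowest values were -0.56 ± 0.25 (adjusted p = 0.420) for Mus81 and -0.53 ± 0.19 (adjusted p = 0.344) for Eme1. For Eme1 the 95% interval of this difference ran from -0.97 to -0.09, and for Chek2 from -0.32 to 0.38. The design therefore did not separate the treatments for these genes, nor does it show that they act alike.

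The untreated pairs give a measure of how far groups of 2 libraries differ without a treatment. PBS H/I against PBS J/K had 0 of 36 genes past the adjusted threshold in limma, against 0.0503% of all tested genes, and 2 of 36 (5.56%) at an unadjusted p under 0.05, Fanca and Eme1, against 17.2%. The median was -0.10 with 24 of 36 below 0, and after glucose it was -0.14 with 30 of 36. This comparison shares PBS J/K with the glucose comparison and PBS H/I with the glucose+lipid comparison, so its values are not independent of theirs. With crossed controls the glucose median was -0.08 and 23 of 36 lay below 0, and the glucose+lipid median was -0.21 with 31 of 36 below 0. For size, the 95% intervals lay within 1 log2 unit of 0 for 35 of 36 genes after glucose, 34 after glucose+lipid and 36 over 4 against 4, where the widest bounds were -0.90 and 0.50.

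Glucose+lipid replicate 1, with its neutrophil transcripts, was left out as a check on the values it enters. The medians after glucose+lipid were then -0.20 for checkpoint, -0.13 for recombination, -0.22 for Fanconi and -0.07 for end joining genes. Single genes moved more: Brca2 had -0.38, Fancm -0.48, Fancl 0.28, Fancd2 -0.22, Lig4 -0.54, Atr -0.19, Mus81 0.48 and Prkdc -0.07. The smallest adjusted p among the 36 genes was 0.441, and the lone remaining library was assumed to vary like the other groups. The G2 and M phase median was -0.51 without this library, that of S phase genes -0.00 and that of p53 targets, described last, 0.13. Of the 110 other repair genes still tested, 66 lay below 0 with a median of -0.05.

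Beyond the 36 genes, 113 further genes of the same pathways and of excision repair were in the files and 111 were tested. None passed in any of the 5 comparisons. At an unadjusted p under 0.05 limma gave 18 of 111 after glucose, against 14.9% of all tested genes, and 10 of 111 after glucose+lipid, against 11.8%. After glucose 79 of 111 lay below 0 with a median of -0.13, after glucose+lipid 73 of 111 with -0.06, and over 4 against 4 84 of 111 with -0.10. Of these 111, 7 were lower in every treated than in every PBS library, against 2.84% of all tested genes. The 27 other recombination genes were lower in most cases, 23 below 0 after glucose (median -0.25) and 22 after glucose+lipid (median -0.11). Base excision genes (18 tested) had medians of -0.14 and 0.02, nucleotide excision genes (19) -0.19 and 0.01, other mismatch genes (8) -0.18 and -0.05, other checkpoint genes (17) -0.00 and -0.25, other Fanconi genes (13) -0.03 and -0.08, and other end joining genes (9) 0.01 and -0.06, after glucose and after glucose+lipid in that order.

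Among these, Fen1, a flap nuclease of replication and base excision, stood at 95.7 and 97.7 FPKM after glucose and 117 and 110 FPKM after glucose+lipid, against 101 and 108 FPKM in PBS H/I and 143 and 138 FPKM in PBS J/K. PBS J/K were the high pair. The log2 fold change of Fen1 was -0.53 ± 0.09 after glucose (adjusted p = 0.119) and 0.12 after glucose+lipid.

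The Fanconi core gene Fancf stood at 7.37 and 9.45 FPKM after glucose and 6.46 and 4.95 FPKM after glucose+lipid, against 13.0 and 15.3 FPKM in PBS H/I and 3.65 and 5.84 FPKM in PBS J/K. Rif1, which shields broken ends from trimming, stood at 19.6 and 21.1 FPKM after glucose and 14.4 and 12.5 FPKM after glucose+lipid, against 25.4 and 25.2 FPKM in PBS H/I and 11.0 and 15.3 FPKM in PBS J/K. For both, the PBS pairs were farther apart than either treated group was from its own controls. The log2 fold changes of Fancf were 0.73 after glucose and -1.18 after glucose+lipid, and those of Rif1 0.61 and -0.86, with adjusted p from 0.199 to 0.256. Of the genes with the smallest p in the other lists, Rnf8, Rad9b, Rbbp8, Pms1, Parp3, Gtf2h4 and Ddb1 had log2 fold changes from -0.57 for Rad9b after glucose+lipid to 0.36 for Parp3 after glucose+lipid, none of which passed.

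Genes of cell cycle phases were read beside the repair genes, since many repair genes are made in cycling cells. After glucose, 29 of 30 S phase genes lay below 0 with a median of -0.25, but PBS H/I against PBS J/K had 27 of 30 below 0 with -0.24. After glucose+lipid the S phase median was -0.01 with 15 of 30 below 0. G2 and M phase genes had medians of -0.10 after glucose (14 of 24 below 0) and -0.32 after glucose+lipid (24 of 24 below 0), and 0.33 between the PBS pairs. None of these genes passed. At an unadjusted p under 0.05 limma gave 8 of 30 S phase genes after glucose, 2 after glucose+lipid and 12 between the PBS pairs. Of 24 G2 and M phase genes it gave 5, 6 and 6. The shares of all tested genes were 14.9%, 11.8% and 17.2% in that order. The cycle genes with the smallest p were Tyms (-0.40 after glucose, adjusted p = 0.223), Pola1 (-0.40 after glucose+lipid, adjusted p = 0.407), Aurkb (-0.50 after glucose, adjusted p = 0.176) and Top2a (-0.34 after glucose+lipid, adjusted p = 0.296). By library, the S phase median deviation was 0.02 and -0.10 after glucose and -0.06 and -0.09 after glucose+lipid, against -0.03 and -0.11 in PBS H/I and 0.27 and 0.13 in PBS J/K. Treated libraries and PBS H/I overlapped on that measure, and for the 36 repair genes together they did not. The 111 other repair genes did not overlap either, with -0.08 to -0.03 in treated and 0.01 to 0.10 in PBS libraries. Within the 36, the checkpoint and end joining groups and the pair Msh6 and Parp1 did overlap. Over 4 against 4, however, 26 of 30 S phase genes lay below 0 with a median of -0.12. For G2 and M phase genes it was 23 of 24 with -0.24, and for the 36 repair genes 33 of 36 with -0.13. The part of the cell cycle in the repair values was not tested.

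Targets of p53, the factor that ATM and CHK2 help to activate, had a median of 0.33 after glucose and 0.20 after glucose+lipid over 24 tested genes (17 above 0 in each). After glucose 3 of 24 rose in limma, against 0.101% of all tested genes called in either direction. After glucose+lipid 1 did, against 0.0754%, and without glucose+lipid replicate 1 the median was 0.13 over 23 genes. Between the untreated pairs, PBS H/I against PBS J/K, the median of these targets was 0.16 with 16 of 24 above 0. Cdkn1a, a cell cycle inhibitor, stood at 57.1 and 54.4 FPKM after glucose and 51.4 and 49.9 FPKM after glucose+lipid, against 25.8 and 25.7 FPKM in PBS H/I and 16.6 and 19.6 FPKM in PBS J/K. It rose by 1.58 ± 0.12 (adjusted p = 0.00234) after glucose and had 0.95 ± 0.12 (adjusted p = 0.0549) after glucose+lipid. Plk2, a stress-induced kinase, rose by 3.12 ± 0.22 (adjusted p = 0.00234) and 1.92 ± 0.22 (adjusted p = 0.0381), and Btg2, a brake on proliferation, rose by 2.30 ± 0.26 (adjusted p = 0.0257) after glucose and had 1.92 ± 0.26 (adjusted p = 0.0758) after glucose+lipid. PBS H/I lay above PBS J/K by 1.22 for Plk2, 0.72 for Btg2 and 0.49 for Cdkn1a. Mean Plk2 was 63.9 FPKM after glucose and 64.6 FPKM after glucose+lipid, against 6.47 FPKM in PBS J/K and 16.3 FPKM in PBS H/I. Btg2 and Plk2 are also known as immediate early genes. The 13 immediate early genes summed to 3549 to 4140 FPKM in treated libraries, against 1607 to 1967 FPKM in PBS libraries, and were above 0 for 13 of 13 in both comparisons. Their part in the p53 targets and in the repair values was not tested.

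**Figure D5:**
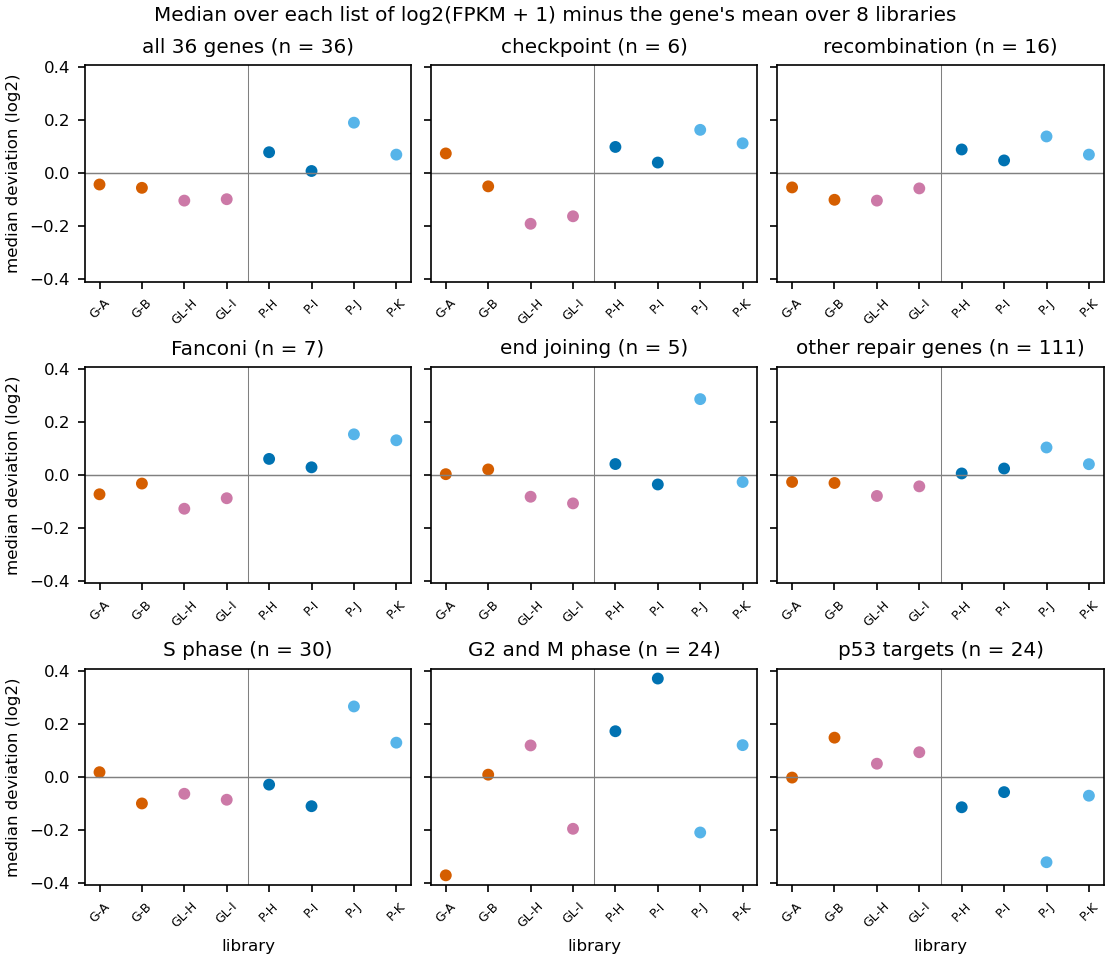
Median over each list of log2(FPKM + 1) minus the gene's mean over 8 libraries, 1 point per library, with glucose (G) and glucose+lipid (GL) left of PBS (P) and each library named by its sample letter. For the 36 genes together the treated points lie below all PBS points. The same holds for the recombination, Fanconi and other repair lists, but not for checkpoint and end joining. In the S phase and the G2 and M phase lists, treated and PBS points overlap. Over 4 against 4 these lists were lower too, with medians of -0.12 and -0.24.

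The 36 genes lie on 14 chromosomes of GRCm38.p6, with 6 on chromosome 11 and 5 on chromosome 9. Eme1 spans chr11:94644972-94653836, Chek2 chr5:110839800-110874140, Rad50 chr11:53649519-53707319 and Clspn chr4:126556957-126594533. The 4 genes that were lower throughout thus come from 3 chromosomes and both from damage signalling and from recombination.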

How the data were processed

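RNA was sequenced from sorted mouse LSK cells in 8 libraries. Per the labels' protocols, the kits were SMART-Seq HT for cDNA and Nextera XT for libraries, which keep no strand, so fragments of overlapping genes cannot be told apart. Per the submitters' processing notes the genome was mm10, and the tools were Cuffnorm 2.2.1, SAMtools 1.0, Bowtie2 2.2.3 and TopHat2 2.0.13. The deposited values are FPKM as the authors made them, 1 file per library. That unit was inferred from the values and the tool names, as no header names it. Which gene annotation and library scaling Cuffnorm used is not given in the sources used here. FPKM are not counts, so no count test was used. Relative depth was read from the most common ratio of low values between libraries.

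The 11931 genes that reached 1 FPKM in 2 or more libraries were fitted as log2(FPKM + 1) in limma 3.58.1 (R 4.3.3) with a mean-variance trend, 4 groups of 2 libraries and 4 residual degrees of freedom. Tests were 2-sided, with Benjamini-Hochberg adjustment over all tested genes and a threshold of 0.05. The fit of 4 treated against 4 PBS libraries had the control set as a covariate. Intervals are 95% limma intervals. Lists are described by counts and medians, with no set test. In each role group, per-library values are given for the 3 genes with the smallest unadjusted p after glucose, after glucose+lipid and between PBS pairs. Each pathway list names any gene that passed and the gene with the smallest p in each treatment comparison. Some genes that these rules name are not reported here. The 36 genes, the lists and the comparisons were chosen with earlier results of these data known. Alternatives were a pseudocount of 0.1, no filter on low values, a filter at 5 FPKM, median ratio rescaling, no trend, other controls, fits on 4 libraries, a replicate block, and each library left out. The procedure was run on simulated data with changes larger than any estimated for the 36 genes, and its outcome is not reported here. Tables were made with pandas 2.3.3 and numpy 2.4.6 in Python 3.11.15, and figures with matplotlib 3.10.9.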

Additional observations from a re-analysis of the deposited data

Results flagged for a closer look

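Nbn had the only value of the 36 genes that stood apart from the other samples of a group of 4. PBS replicate 1 held 35.32 FPKM, the lowest of the 4 PBS libraries, and its gap to the nearest of the others was 0.83 of the whole PBS range, at the edge of the critical share for groups of this size. Chance flags about 1 in 20 groups, and 36 genes were examined in this way. The glucose and glucose+lipid groups hold 2 libraries each and could not be examined.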

How the results depend on the processing

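No repair gene passed under any alternative. Among genes with the smallest p in their role group after glucose, after glucose+lipid or between PBS pairs, the smallest adjusted p was 0.0714. That was Eme1 after glucose in limma with a filter at 5 FPKM. With crossed controls the median was -0.076 after glucose, -0.21 after glucose+lipid and 0.14 for the difference of effects, against -0.14, -0.15 and 0.03 as reported, and with all 4 PBS libraries it was -0.086 after glucose. Crossed controls turned the sign of 15 of 36 genes after glucose and 11 of 36 after glucose+lipid, and all 4 PBS libraries as controls that of 9 and 8. Among genes with the smallest p in their role group and comparison, crossed controls turned it after glucose for Fancl (0.27), Xrcc6 (0.11), Xrcc4 (-0.19) and Msh6 (0.067) and after glucose+lipid for Fancl (-0.075). All 4 PBS libraries turned it for those genes after glucose for Fancl (0.055) and Xrcc4 (-0.066). With libraries left out in turn, the median ran from -0.23 to -0.077 after glucose, from -0.16 to -0.050 between PBS pairs and from -0.17 to -0.11 over 4 against 4. The genes lower in every treated than every PBS library then numbered 4 to 7, with 7 without glucose replicate 1 or PBS replicate 2. Leaving out a library can only add to the 4 reported genes, so it is no check on them. Median ratio rescaling left 3 of them, without Clspn. Leaving out 1 library or another turned the sign of 17 of 36 genes after glucose, 15 after glucose+lipid, 14 between PBS pairs and 13 over 4 against 4. Among the same small-p genes it did so after glucose for Xrcc5 (-0.16 to 0.26), Chek1 (-0.74 to 0.13), Xrcc4 (-0.29 to 0.40) and Xrcc6 (-0.28 to 0.021). It did so after glucose+lipid for Parp1 (-0.38 to 0.011) and Msh6 (-0.089 to 0.044), and between PBS pairs for Tipin (-0.28 to 0.036), Atm (-0.15 to 0.40) and Lig4 (-0.068 to 0.65). Apart from the changed samples, the cause was not tested. Deviations of same-numbered glucose+lipid and PBS libraries correlated at 0.07 over 11931 genes with 2 pairs, so the numbers were not taken as pairs, and with a replicate block 0 of 36 genes passed and the median was -0.15, as without it. Groups of 2 libraries left standard errors of 0.10 to 0.30 on the log2 scale, which limits what small differences can show.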
